A study of Camelina sativa with 159 samples.

Results

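Csa05g052440.1 and Csa07g017920.1 are 2 gene models of Camelina sativa that carry the Gene Ontology term ADP binding. Both were nearly silent in young leaves of 3 of the 4 late-flowering accessions. They were chosen by name, 2 of the 94495 gene models counted in each library, because earlier results of these data had shown them low in late accessions. Their levels in late and early accessions are therefore given as a description, without a test. Leaf RNA came from 48 accessions in 158 libraries, 2 to 6 libraries for each accession, and 1 further library came from accession Licalla, which has no flowering time label. All plants were untreated seedlings grown in a long-day greenhouse and sampled when the fourth leaf had fully expanded, so that the accession is the only difference between groups that the labels state. Flowering time (FT) is the label's number of days to flowering of 50% of the plants. By the study's methods FT was recorded in field plots of the accessions, not on the greenhouse seedlings that gave the RNA. The 4 late accessions were CN 113662 (52 days), CN 113692 (55 days), CN 113691 (59.4 days) and CN 113660 (61.9 days), with 11 libraries in all. The 44 early accessions had FT of 43 to 47.9 days and 147 libraries, and CN 113672, whose libraries differed among themselves, is an early accession with 46.3 days. The study's methods call the replicates of an accession biological, but neither they nor the labels say which libraries came from separate plants, so part of the spread between libraries may be technical.

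In plants the term ADP binding is carried mostly by proteins with an NB-ARC domain, the nucleotide-binding switch of the intracellular immune receptors known as NLR proteins. Such a receptor holds ADP while at rest and exchanges it for ATP when a pathogen molecule is sensed, after which it sets off defence responses. In Arabidopsis, a close relative of C. sativa, NLR genes are among the gene families that vary most between accessions, both in presence and in leaf expression. C. sativa is a hexaploid whose subgenomes carry similar copies of most genes, so that reads from near-identical copies can be shared between gene models. No source used here gives a gene name, a protein description or a sequence for Csa05g052440.1 or Csa07g017920.1, and neither is called an NLR gene below.

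The libraries held between 167 and 15246389 counts, with a median of 4310559. Of the early libraries 10 had at most 123028 counts, all other libraries had at least 444464, and levels per library are given for the 148 deeper libraries of the 48 accessions, of which 137 were early. Levels are in CPM, the count of a gene model divided by the library total and multiplied by 1000000, with an exact Poisson 95% interval that covers counting error only. CPM is not corrected for length, so a gene model was compared between libraries and not with other gene models. In whole leaves, fewer cells expressing a gene and less RNA per expressing cell cannot be told apart. Libraries of 2 accessions stood apart from their own group. Of the 3 libraries of CN 113662, Cs035 resembled the other late accessions for Csa05g052440.1 whereas Cs040 lay within the early range, and of the 4 libraries of CN 113672, S001C2D lay below all other early libraries. The late against early fit is given with and without CN 113662, and the spread among early libraries with and without CN 113672, which is included in the relations with FT and with the accession prefix. As a check of the tissue, the chlorophyll a/b-binding protein gene Csa06g036860.1, part of the light-harvesting apparatus, was at 1369.7 to 2548 CPM in the late libraries and at 408 to 3912 CPM in the deeper early libraries. Phytoene desaturase (Csa11g040110.1), an enzyme of carotenoid synthesis, was at 32.6 to 51.9 CPM in the late libraries and 41.3 to 82.5 CPM in the deeper early libraries. Both groups thus held both markers of green leaf, with overlapping ranges.

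Csa05g052440.1 and Csa07g017920.1 were close to 0 in every library of CN 113660, CN 113691 and CN 113692. In CN 113660, Csa05g052440.1 had 0 counts in Cs034, 1 count in Cs038 (0.139 CPM) and 0 counts in Cs050. In CN 113691 it had 1 count in Cs010 (0.171 CPM), 4 in Cs019 (1.11 CPM) and 4 in Cs030 (0.953 CPM). In CN 113692 it had 2 counts in Cs007 (0.463 CPM) and 0 in Cs008. At the median level of the deeper early libraries, each of these 8 libraries would have held between 35.7 reads (Cs008, the shallowest) and 397 reads (Cs038). Csa07g017920.1 was lower still, with 1 count in Cs034 of CN 113660 (0.227 CPM) and 0 counts in the other 7 libraries, where 24.4 to 271 reads would have been expected at the early median. A count of 0 allows up to 3 counts, which is 0.418 CPM in Cs038 and 4.64 CPM in Cs008, so the silence of Cs008 was measured less firmly than that of the deeper libraries.

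The deeper early libraries spanned quite another range. For Csa05g052440.1 the lowest of them was at 8.35 CPM, the median at 55.2 CPM and the highest at 125 CPM. For Csa07g017920.1 the lowest was at 11.7 CPM (Cs149 of CN 111331), the median at 37.8 CPM and the highest at 93.2 CPM (S001362 of CN 113682). All 8 libraries of CN 113660, CN 113691 and CN 113692 thus lay below all 137 deeper early libraries for both gene models, with no overlap. Such a separation was found for 0.0339% of 50080 gene models, a share that, like the levels, describes gene models chosen for this pattern.

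CN 113662, the earliest of the late accessions, did not share this silence. For Csa05g052440.1 its libraries held 9 counts in Cs035 (2.72 CPM, 95% interval 1.24 to 5.15), 99 counts in Cs147 (14.6 CPM, 11.8 to 17.7) and 142 counts in Cs040 (38.7 CPM, 32.6 to 45.6). The 3 intervals do not overlap, so the libraries of this accession differed by more than counting error. For Csa07g017920.1 the same libraries held 41 counts in Cs035 (12.4 CPM, 8.88 to 16.8), 92 in Cs147 (13.5 CPM, 10.9 to 16.6) and 92 in Cs040 (25.1 CPM, 20.2 to 30.8). Cs035 and Cs147 could not be separated here, and all 3 libraries lay inside the early range of Csa07g017920.1, in its lower part. Cs035 was at 4.92% of the early median for Csa05g052440.1 and at 32.7% for Csa07g017920.1, so that only the former lay below the early range.

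CN 113672 showed a similar split in a single library. Csa05g052440.1 held 287 counts in Cs053 (35.1 CPM), 51 in S001C1C (64.7 CPM), 113 in S001C24 (31.4 CPM) and 47 in S001C2D (8.35 CPM, 6.13 to 11.1). The first 3 of these lay within the range of the other early accessions, which began at 25.1 CPM (Cs117 of CN 101986), and S001C2D lay below it. Csa07g017920.1 held 189 counts in Cs053 (23.1 CPM), 45 in S001C1C (57.1 CPM), 120 in S001C24 (33.3 CPM) and 200 in S001C2D (35.5 CPM, 30.8 to 40.8). S001C2D was thus near the early median for Csa07g017920.1 and stood out for Csa05g052440.1 only. The single library of Licalla had 41.03 CPM of Csa05g052440.1 and 21.1 CPM of Csa07g017920.1, inside both early ranges.

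**Figure D1:**
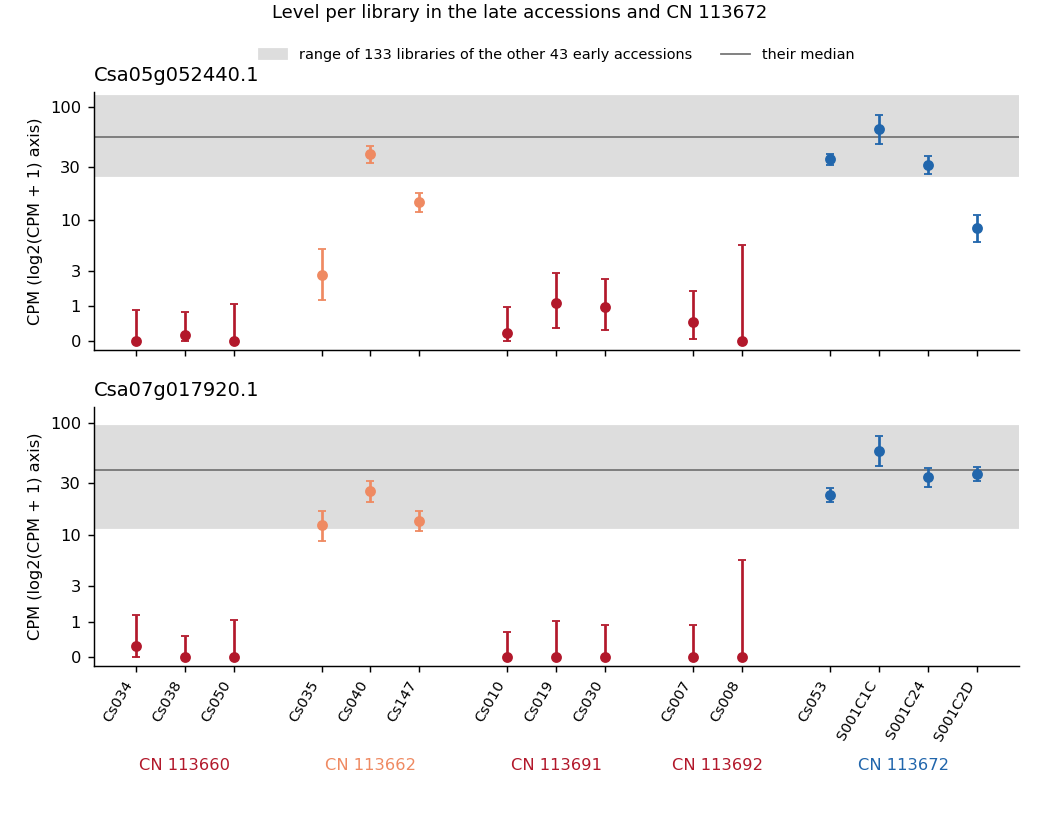
Level of Csa05g052440.1 (top) and Csa07g017920.1 (bottom) in each library of the 4 late accessions and of CN 113672, in CPM on a log2(CPM + 1) axis. Points are libraries, bars are exact Poisson 95% intervals, and the grey band and line are the range and median of the 133 deeper libraries of the other 43 early accessions. CN 113660, CN 113691 and CN 113692 lie at or near 0 in both panels, whereas Cs035, Cs147 and S001C2D lie below the band only in the top panel.

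A state was given to each library by its level. A library was off below 5% of the median of the deeper early libraries (2.76 CPM for Csa05g052440.1 and 1.89 CPM for Csa07g017920.1), on at or above the lowest deeper early library, and intermediate between. Csa05g052440.1 was off in 9 of the 11 late libraries, namely the 8 of the silent accessions and Cs035 of CN 113662. The level of Cs035, 2.72 CPM, lies just under its threshold and its interval spans it. Csa07g017920.1 was off in 8 of the 11 late libraries and on in the 3 of CN 113662. Its bound of on, 11.7 CPM, was set by Cs149 alone, and the next lowest deeper early library was at 14.5 CPM. Cs035 (12.4 CPM) and Cs147 (13.5 CPM) lay between these values, and their intervals span the bound. No early library was off for either gene model, although the 10 shallow early libraries had too few expected reads for a state. Because S001C2D itself set the lower bound of on for Csa05g052440.1, all 4 libraries of CN 113672 were on by this rule. With a bound set without CN 113672, at 25.1 CPM, S001C2D and Cs147 of CN 113662 became intermediate for Csa05g052440.1, and no state of Csa07g017920.1 changed.

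Summed over its libraries, Csa05g052440.1 reached 0.0665 CPM in CN 113660, 0.403 CPM in CN 113692, 0.659 CPM in CN 113691 and 18.1 CPM in CN 113662, against 56.4 ± 13.1 CPM (SD, n = 44) in the early accessions. Relative to the early mean it was 848-fold lower in CN 113660 (from 1 count, interval 152 to 33475), 140-fold lower in CN 113692 (from 2 counts, 38.8 to 1157), 85.5-fold lower in CN 113691 (45.1 to 187) and 3.11-fold lower in CN 113662 (2.74 to 3.53). The wide intervals come from the few reads, so the order of the 3 silent accessions is not resolved. For both gene models the intervals cover counting error only and take the early mean as fixed. They leave out the spread between libraries, which for Csa05g052440.1 in CN 113662 ran from 2.72 to 38.7 CPM. Csa07g017920.1 reached 0.0665 CPM in CN 113660, 0 in CN 113691 and CN 113692, and 16.3 CPM in CN 113662, against 40.1 ± 9.81 CPM (SD, n = 44) in the early accessions. It was 603-fold lower in CN 113660 (from 1 count, 108 to 23804), at least 182-fold lower in CN 113691, at least 66.4-fold lower in CN 113692 (both against a floor of 3 counts over the accession) and 2.45-fold lower in CN 113662 (2.15 to 2.81). The silence of both gene models thus belonged to 3 of the 4 late accessions, and the fourth held a reduced level.

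In the fit of late against early accessions across 52307 gene models with edgeR, with the counts of an accession summed, the log2 fold change was −3.42 (SE 0.47) for Csa05g052440.1 and −3.15 (SE 0.52) for Csa07g017920.1. Without CN 113662 these were −7.20 and −10.001, the latter set largely by the prior count because the remaining accessions held 1 read. Of all gene models tested, 14.3% were called in either direction and 8.28% were called lower in the late accessions. In summed CPM, all 4 late accessions lay below all 44 early accessions for both gene models, with 18.1 CPM against a lowest early value of 27.4 CPM for Csa05g052440.1 and 16.3 against 24.1 CPM for Csa07g017920.1. Such a complete separation was found for 0.482% of the gene models tested, a share that describes the way these gene models were chosen. At the level of libraries the groups overlapped through CN 113662.

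All late libraries carry codes of series Cs, whereas the early libraries fall into series Cs, S001C and S0013, and what separates the series is not stated. The lowest of the 51 deeper early Cs libraries was at 25.1 CPM for Csa05g052440.1 and 11.7 CPM for Csa07g017920.1, so the 8 libraries of the silent accessions also lay below all early libraries of their own series. The series itself was tested in the early accessions with libraries of both Cs and S001C, with the accession as a block. The fit used 66 sums of counts, each over an accession's libraries of a series, shallow libraries included. This contrast played no part in choosing the gene models. Both were called lower in Cs, where 16.4% of 50935 gene models were called in either direction. Csa05g052440.1 was lower by a log2 fold change of −0.25 (SE 0.072, adjusted p = 0.0129 by the quasi-likelihood test of edgeR, Benjamini-Hochberg over all gene models). Of the 30 accessions with deeper libraries of both series, it was lower in Cs in 23. Csa07g017920.1 was lower by −0.32 (SE 0.079, adjusted p = 0.00432, same test) and was lower in Cs in 25 of the 30. With RLE in place of TMM normalization the changes were −0.42 and −0.48, while the median over all gene models moved from −0.01 to −0.17. The medians of the deeper early libraries were 48.6, 64.5 and 49.1 CPM in Cs, S001C and S0013 for Csa05g052440.1, and 31.7, 45.0 and 34.7 CPM for Csa07g017920.1.

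Among the 44 early accessions Csa05g052440.1 and Csa07g017920.1 were expressed in every accession, and none approached the silent ones. Ordered by the mean of the deeper libraries, Csa05g052440.1 ranged from CN 113672 (34.9 ± 23.1 CPM, SD, n = 4) to CN 113706 (87.8 ± 13.8, n = 3) and CN 113750 (90.4 ± 20.7, n = 3). Between 30 and 40 CPM lay 4 accessions (CN 113672, CN 101985, CN 113699 and CN 114270), between 40 and 50 CPM 7, between 50 and 60 CPM 17, between 60 and 70 CPM 7 and between 70 and 80 CPM another 7. Most early accessions thus lay near the middle of the range, far from the silent ones. Csa07g017920.1 ranged from CN 113694 (23.8 ± 3.67 CPM, n = 3) to CN 113742 (64.6 ± 14.7, n = 3). For this gene model 7 accessions lay between 20 and 30 CPM, 15 between 30 and 40 CPM, 14 between 40 and 50 CPM and 7 between 50 and 60 CPM. CN 113750 and CN 113706, the highest accessions for Csa05g052440.1, had 50.7 and 57.9 CPM of Csa07g017920.1, while CN 113742, the highest for Csa07g017920.1, had 47.6 CPM of Csa05g052440.1. The leading accessions therefore differed between the gene models.

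Of the 47 pairs of neighbours in the order of all 48 accessions, only 1 for each gene model differed by more than the larger SD of the pair. For Csa07g017920.1 it was the step from the highest silent accession, CN 113660, to CN 113662. For Csa05g052440.1 it was the step from CN 113692 to CN 113691, a gap of 0.513 CPM that rests on single reads, while the steps on either side of CN 113662 were smaller than the spread of its own libraries (18.7 ± 18.3 CPM, n = 3). On the log2(CPM + 1) scale the SD between libraries of an early accession was 0.44 for Csa05g052440.1 and 0.46 for Csa07g017920.1, and the SD between accessions was 0.22 and 0.21. Accession therefore took 20.3% and 16.9% of the variance among early libraries, and most of it lay between libraries of an accession. Without CN 113672 these shares were 19.6% and 17.999%. The split had no term for library series, so the spread between libraries of an accession includes the series difference given above.

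**Figure D2:**
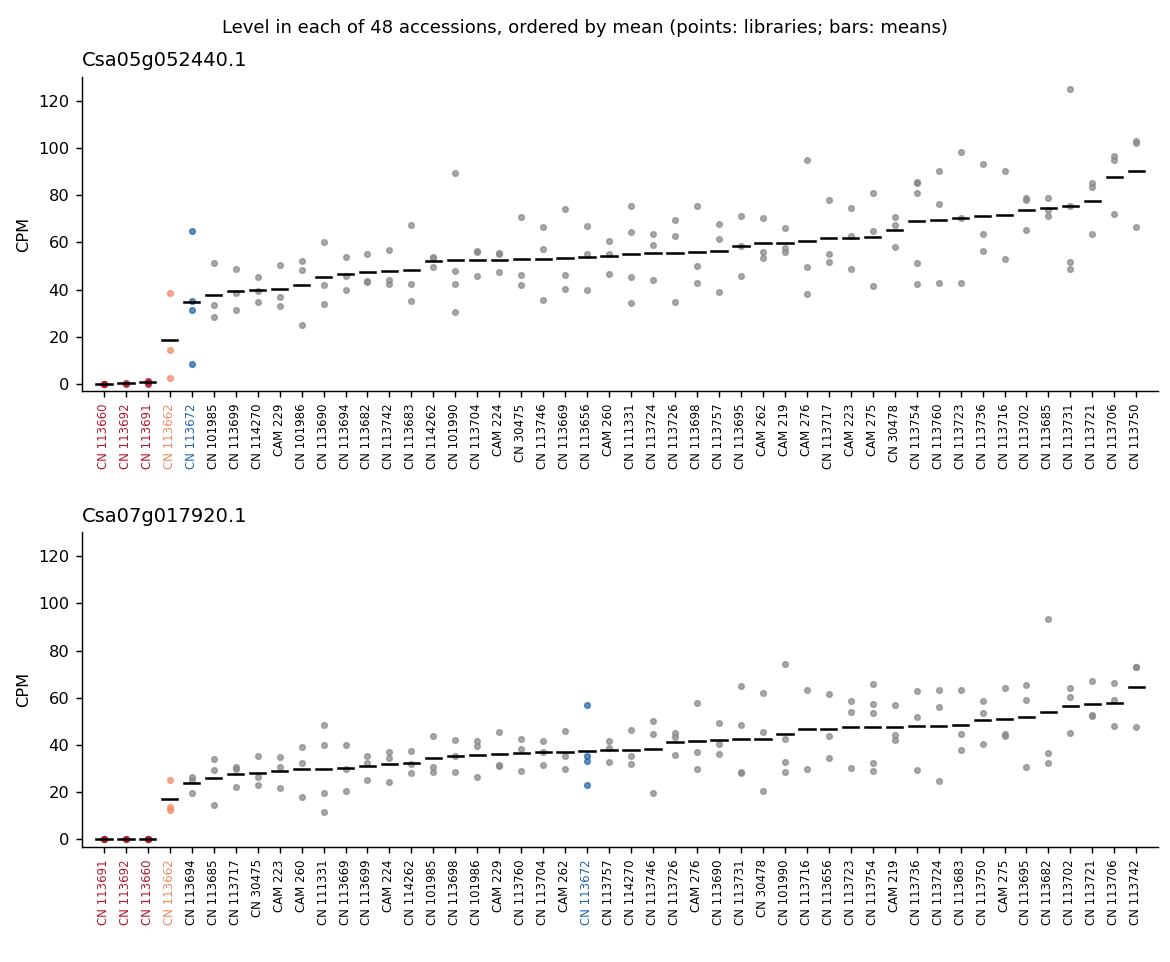
Level of Csa05g052440.1 (top) and Csa07g017920.1 (bottom) in CPM in each of the 48 accessions, ordered by the mean of the deeper libraries. Points are libraries and black bars are means, with late accessions in red and orange and CN 113672 in blue. The 3 silent accessions form the left end of both panels, CN 113662 follows, and the early accessions increase gradually, CN 113672 being the lowest early accession only in the top panel.

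The 2 gene models varied together in part. Across all 148 deeper libraries Pearson's r of log2(CPM + 1) was 0.92, a value carried by the silent accessions. Within the 137 deeper early libraries it was 0.46 (Spearman's rho 0.54), and over the 44 early accession means 0.32 (rho 0.36), or 0.497 and 0.335 without CN 113672, where points share library depth and preparation. The balance of the pair was also followed within each library, as the share of Csa05g052440.1 in the summed counts of both, which does not depend on the library total. In the 133 deeper libraries of the early accessions other than CN 113672 this share had a median of 59.02% and ranged from 36.7% (S001C3C of CN 113742) to 83.6% (S00136B of CN 113685). S001C2D of CN 113672 had a share of 19.0% (exact binomial 95% interval 14.3 to 24.5, 247 counts) and Cs035 of CN 113662 a share of 18% (8.58 to 31.4, 50 counts). Both intervals lay below the lowest of those 133 libraries. The sister libraries were unremarkable, with 60.7% in Cs040, 51.8% in Cs147, 60.3% in Cs053, 53.1% in S001C1C and 48.5% in S001C24. In the silent accessions too few reads were left for a share.

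**Figure D3:**
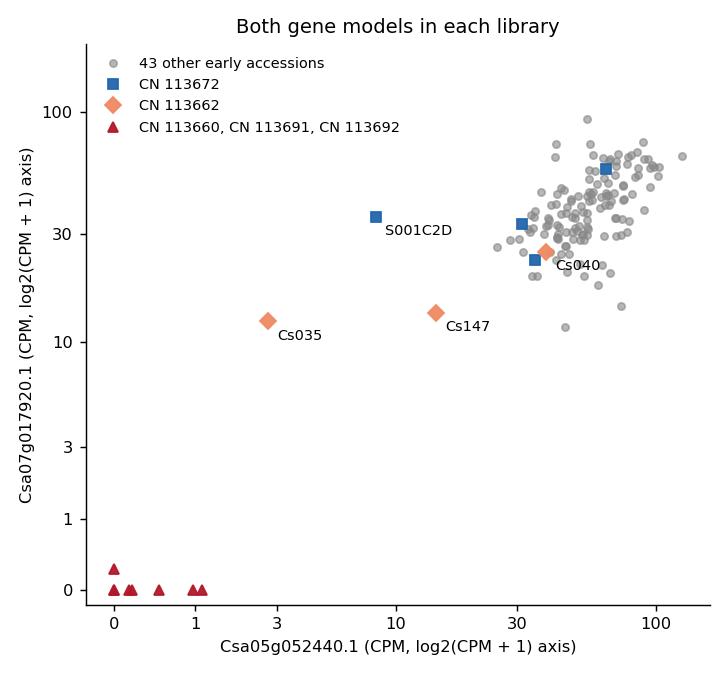
Csa07g017920.1 against Csa05g052440.1 in each deeper library, both in CPM on log2(CPM + 1) axes. Grey points are the 133 libraries of the other early accessions, blue squares CN 113672, orange diamonds CN 113662 and red triangles the 3 silent accessions. S001C2D and Cs035 lie to the left of the early cloud, with low Csa05g052440.1 at a Csa07g017920.1 level inside the early range.

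CN 113672 was then set against the other 43 early accessions with its libraries summed. It was the lowest of the 44 for Csa05g052440.1, with 27.4 CPM against 35.6 CPM in the next, CN 101985, and the sixth lowest for Csa07g017920.1, with 30.4 CPM. Neither was called, where 0.129% of 55186 gene models were. The log2 fold change was −0.94 for Csa05g052440.1 (SE 0.298, 95% interval −1.53 to −0.36, adjusted p = 0.18, edgeR's quasi-likelihood test) and −0.29 for Csa07g017920.1 (SE 0.327, −0.93 to 0.35, adjusted p = 0.757). The result for Csa05g052440.1 turned on single libraries. Without S001C2D the change was −0.49, and without Cs053 it was −1.40 and was called (adjusted p = 0.0185, edgeR's quasi-likelihood test). The fit assumes that the lone accession varies like the others.

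Within the early accessions neither gene model was found to follow FT. In the edgeR fit, which called 0.0216% of 50816 gene models, the log2 change per day of FT was 0.01 for Csa05g052440.1 (SE 0.041, 95% interval −0.07 to 0.09, adjusted p = 0.968) and 0.03 for Csa07g017920.1 (SE 0.042, −0.05 to 0.11, adjusted p = 0.82). Across the 44 accessions Pearson's r between log2(CPM + 1) and FT was 0.033 for Csa05g052440.1 (permutation p = 0.83, rho 0.061 with p = 0.69) and 0.064 for Csa07g017920.1 (permutation p = 0.68, rho 0.030 with p = 0.85), and the adjusted p over these 2 relations was 0.83 for both. When CAM 275 and CN 113690 were left out, whose FT lay farthest from the median, r was −0.057 and 0.048. Within series Cs, S001C and S0013, r was 0.11, −0.055 and −0.12 for Csa05g052440.1 and 0.19, 0.031 and −0.016 for Csa07g017920.1. The early accessions span only 43 to 47.9 days, which limits what this relation can show.

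The names of the accessions carry the prefixes CAM and CN, and among the early accessions 8 were CAM and 36 CN. Neither gene model was called between them, where 0.0435% of 50523 gene models were. The log2 fold change of CAM against CN was −0.03 for Csa05g052440.1 (SE 0.115, 95% interval −0.25 to 0.20, adjusted p = 0.958, edgeR's quasi-likelihood test) and −0.09 for Csa07g017920.1 (SE 0.124, −0.33 to 0.16, adjusted p = 0.813). Within series Cs the values were 0.12 and 0.23 and within series S001C −0.14 and −0.29, so the direction was not settled.

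Both gene models belong to the tan co-expression module, a list of gene models that were grouped on these same samples, so the module is not independent evidence of a direction. Of this list 145 gene models were called lower in the late accessions, 0 higher and 19 in neither direction, where 8.28% of all gene models were called lower and 6% higher, with a median log2 fold change of −1.34 against −0.01 over all gene models. In the contrasts that the choice of Csa05g052440.1 and Csa07g017920.1 did not use, 0 of the list were called for CAM against CN, for FT among early accessions and for CN 113672, with medians of −0.02, −0.03 and −0.22 beside −0.01, −0.0035 and −0.03 over all gene models. Between series Cs and S001C 10 of the list (6.10%) were called higher and 39 (23.8%) lower in Cs, against 8.57% and 7.79% of all gene models, with a median of −0.11 against −0.01.

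The gene models whose pattern was most like the pair were listed by Pearson's r of log2(CPM + 1) over the 148 deeper libraries, among 50079 other gene models. For both Csa05g052440.1 (r = 0.93) and Csa07g017920.1 (r = 0.92) the first was Csa16g018270.1. It was at most at 4.29 CPM in the silent accessions against an early median of 32.1 CPM, and had 11.5 CPM in Cs035, 22.2 CPM in Cs147, 29.996 CPM in Cs040 and 35.5 CPM in S001C2D. Each member of the pair was second in the list of the other. Csa05g052440.1 was followed by Csa04g063650.1 (0.88), a copy of the flowering activator SOC1, then Csa07g036480.1 (0.85) and Csa02g058290.1 (0.84). Csa07g017920.1 was followed by Csa07g036480.1 (0.87), Csa15g020170.1 (0.86) and Csa15g027590.1 (0.83). Every one of these belongs to the tan module, as did 34 and 35 of the first 50 in the 2 lists.

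These neighbours in pattern parted at the odd libraries. The SOC1 copy Csa04g063650.1 was low in Cs035 (0.905 CPM) and in S001C2D (1.24 CPM), as was Csa05g052440.1, against 8.18 CPM in Cs040, 5.89 CPM in Cs147 and an early median of 17.1 CPM. Csa07g036480.1 was high in Cs035 (94.7 CPM, early median 80.0 CPM) although it reached at most 7.49 CPM in the silent accessions. Csa02g058290.1 had 13.3 CPM in Cs035 and 28.6 CPM in S001C2D, against an early median of 29.5 CPM. The other SOC1 and AGL19 copies of the module, which like SOC1 promote flowering in Arabidopsis, were also below their early medians in these libraries. Csa06g052060.1, a further SOC1 copy, had 3.32 CPM in Cs035 and 8.70 CPM in S001C2D against an early median of 30.4 CPM. The AGL19 copy Csa10g020140.1 had 2.72 and 5.86 CPM against 12.1 CPM. Its 5.86 CPM in S001C2D lay inside the range of the other early accessions, which began at 5.16 CPM. The sister libraries Cs040, Cs147, Cs053 and S001C24 were below both medians as well, with 15.3, 13.3, 18.3 and 25.8 CPM of Csa06g052060.1. For Csa10g020140.1 they had 7.64, 8.69, 7.34 and 11.7 CPM. S001C1C was above both medians. The other AGL19 copy, Csa12g033740.1, had 0.302 CPM in Cs035 and 0.178 CPM in S001C2D, from 1 count each, against 2.42 CPM. Both values of Csa12g033740.1 lay inside the range of the deeper early libraries, 0 to 10.1 CPM. Csa07g017920.1, by comparison, was at 32.7% of its early median in Cs035 and at 94.0% in S001C2D, and Csa05g052440.1 at 4.92% and 15.1%.

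Likeness depended on the silent accessions. By Spearman's rho, or by Pearson's r over the early libraries alone, the first 5 of either gene model held none of the gene models above, the highest coefficients were 0.80 and 0.76 (rho) and 0.76 and 0.68 (early r), and the other member of the pair fell to rank 418 and 144 by rho and to rank 2568 and 1318 over the early libraries.

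The gene models with neighbouring locus numbers, up to 5 on either side, were read as a description of the surroundings. Around Csa05g052440.1 they were nearly unexpressed in leaves, with early medians of at most 0.376 CPM, except Csa05g052430.1. That gene model had an early median of 9.51 CPM and was still present in the silent accessions, at 4.65 to 12.4 CPM. Around Csa07g017920.1, Csa07g017960.1 and Csa07g017970.1 were expressed at early medians of 6.13 and 37.5 CPM and were likewise present in the silent accessions, at 2.22 to 15.5 CPM and 32.3 to 75.3 CPM. Csa07g017950.1 was at 4.77 to 12.4 CPM in the silent accessions, above its early median of 3.54 CPM. Those values lay inside its early range, 0 to 14.3 CPM. In the 3 libraries of CN 113662 it was at 1.64 to 1.81 CPM. The ranges given for the silent accessions, here and for Csa07g017930.1 below, include the shallow Cs008, where 3 counts are 4.64 CPM. The remaining neighbours, apart from Csa07g017930.1, had early medians of at most 0.767 CPM. Low levels in the silent accessions thus did not extend to all expressed neighbours.

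The gene model next to Csa07g017920.1, Csa07g017930.1, came closest to its pattern. It too is one of the tan module, had an early median of 14.5 CPM and was at 0 to 3.09 CPM in the silent accessions, and it had 5.43 CPM in Cs035, 12.1 CPM in Cs147, 15.5 CPM in Cs040 and 14.6 CPM in S001C2D. Among the early accessions the pair of neighbours did not go together throughout. In 8 early accessions (CAM 223, CAM 224, CAM 260, CN 113685, CN 113694, CN 113717, CN 113746 and CN 113760) Csa07g017930.1 averaged 1.60 to 5.82 CPM, against 12.3 to 27.4 CPM in the other 36, a division at 10 CPM that was made after its values were seen. In those 8 Csa07g017920.1 was at 23.8 to 38.2 CPM (median 29.5), against 28.3 to 64.6 CPM (median 42.6) in the other 36. The ranges overlap, and CN 113694, CN 113685 and CN 113717, which are among the 8, were the 3 lowest early accessions for Csa07g017920.1. Csa05g052440.1 was at 46.4 to 74.5 CPM (median 57.8) in the 8 and 34.9 to 90.4 CPM (median 55.5) in the 36. Low Csa07g017930.1 was therefore seen in accessions where Csa07g017920.1 was on. Whether the counting could assign reads of Csa07g017920.1 to its neighbour, or to a near-identical copy elsewhere, was not tested.

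**Figure D4:**
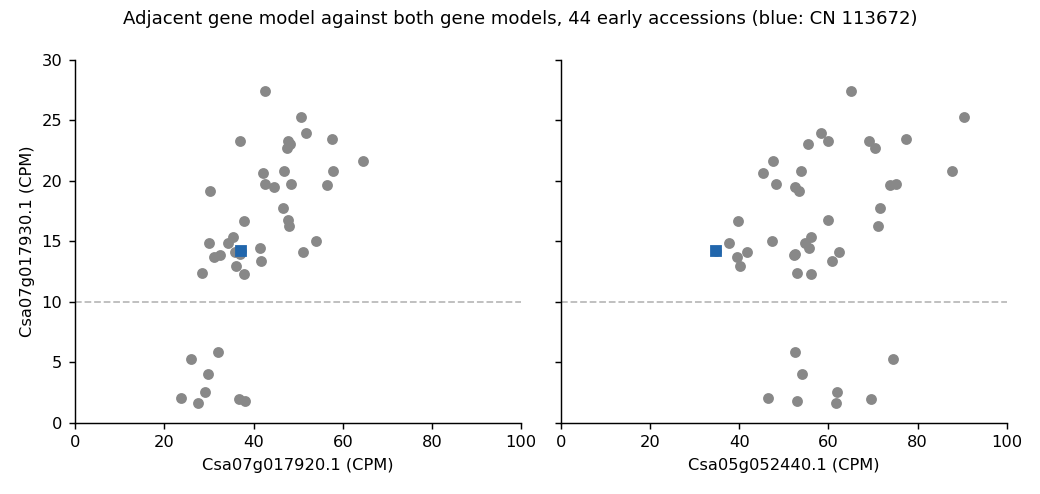
Mean level of Csa07g017930.1 against that of Csa07g017920.1 (left) and Csa05g052440.1 (right) in the 44 early accessions, in CPM over the deeper libraries, with CN 113672 in blue. The dashed line marks 10 CPM. The 8 accessions under the line hold Csa07g017920.1 at 23.8 to 38.2 CPM.

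The libraries that stood apart for Csa05g052440.1 were also placed by other genes. Leaving out CN 113662, CN 113672 and the pair itself, 568 gene models were called between the 3 silent accessions and the 43 other early accessions with a log2 fold change of at least 2 in size, 351 lower and 217 higher. For each library the share of these that lay nearer to the mean of the silent accessions than to the early mean was counted. It was 80.8% to 91.9% in the 8 libraries of the silent accessions and 3.70% to 36.4% in the 133 early libraries, which served to choose the gene models and so are given only as the scale. Of the 8 libraries that took no part in the choice, 3 fell between these spans and 5 inside the early span. Cs035 of CN 113662 was at 68.5%, Cs147 at 44.2% and Cs040 at 32.9%, the last inside the early span. S001C2D of CN 113672 was at 47.5%, above every one of the 133 early libraries, while its sister libraries S001C24, S001C1C and Cs053 were at 33.1%, 32.04% and 27.1%, and Licalla was at 22.7%. In CN 113662 the order of the libraries by this share was the reverse of their order by Csa05g052440.1, and in CN 113672 the library with the highest share had the lowest Csa05g052440.1. The libraries of these accessions were also compared over all their counts. The chi-square per gene model between the libraries of CN 113662 was 7.22 (Cs035 and Cs040), 7.32 (Cs040 and Cs147) and 11.8 (Cs035 and Cs147). In CN 113672 it was 3.52, 8.81 and 12.5 between S001C2D and S001C1C, S001C24 and Cs053, and 3.73 to 3.83 among those other 3 libraries. These values compare with a median of 4.20 (range 1.46 to 19.6) over 159 pairs of libraries of an accession, where sampling alone gives about 1. The measure is not corrected for depth, and an excess over sampling grows with the counts. The libraries of CN 113672 ran from 787900 counts in S001C1C to 8175027 in Cs053, which is also of another series than S001C2D. The part that such differences between the libraries of an accession have in the levels of Csa05g052440.1 was not tested.

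**Figure D5:**
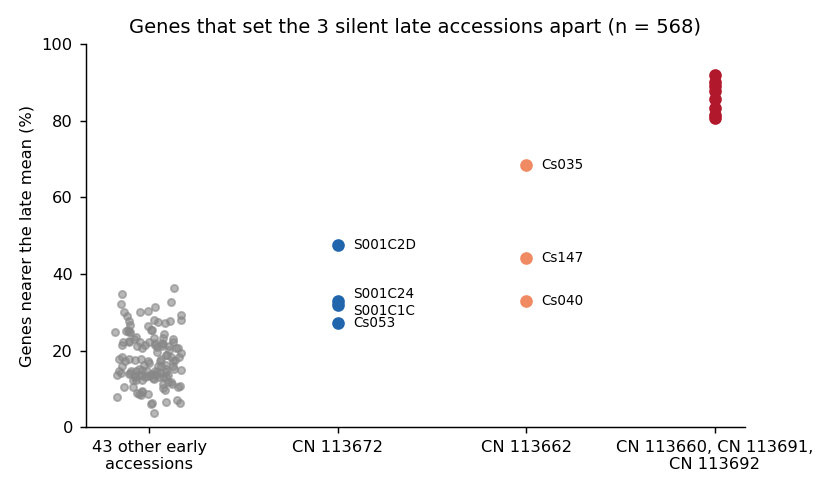
Share of 568 gene models, in percent, whose level in a library was nearer to the mean of CN 113660, CN 113691 and CN 113692 than to the mean of the early accessions, one point for each deeper library. The left and right groups were used to choose the gene models. Of the libraries not used, Cs035 (68.5%), S001C2D (47.5%) and Cs147 (44.2%) lie above the early span, which ends at 36.4%.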

How the data were processed

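The deposited table holds raw counts of reads per gene model in each library, which the authors made from TruSeq paired-end reads trimmed with Trimmomatic 0.32, mapped to the reference genome of the species with STAR 2.7.10a and counted with featureCounts 2.0.1, without pooling or normalization. The genome build and the strand and multi-mapping settings of the counting are not given in the sources used here. Each column was assigned to an accession through the labels. The gene models and lists were chosen with earlier results of these data known. Levels are CPM of the library total. Tests used edgeR 4.0.16 in R 4.3.3 (counts summed per accession, TMM, filterByExpr, quasi-likelihood test, Benjamini-Hochberg over all gene models tested, threshold 0.05), with DESeq2 1.42.0, RLE, no filter, other libraries and left-out libraries or accessions as alternatives. The edgeR fits and the ranking of gene models by likeness were tested on simulated data, and DESeq2 was not. Correlations with FT used 100000 two-sided permutations. Besides the pair, the 5 gene models most like each, those within 5 locus numbers, SOC1 and AGL19 copies, 2 leaf markers and the tan list were named. Libraries of an accession differed beyond sampling noise in all 159 pairs of deeper libraries and were each kept. The Licalla library entered no comparison.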

Additional observations from a re-analysis of the deposited data

Results flagged for a closer look

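Among the 4 late accessions CN 113662 stood far from the others for both gene models. For Csa05g052440.1 it had 18.1 CPM over its libraries, and the next late accession, CN 113691, had 0.659 CPM. For Csa07g017920.1 it had 16.3 CPM, and the next, CN 113660, had 0.0665 CPM. The gap to the next value took nearly the whole range of the group in each case. Of 14 groups of values examined for such gaps only these 2 showed one, and among groups without any real difference about 1 in 20 would. The gene models were chosen by their levels in these same accessions and the 2 gaps come from the same libraries, so both are given as a description that supports no call.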

How the results depend on the processing

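Of 194 values recomputed under alternatives, 160 kept their direction and their side of the threshold or their size, 25 moved, 8 reversed and 1 became significant. Reversals concerned only values near 0. The CAM against CN change became 0.12 and 0.23 with series Cs alone, the FT slope of Csa05g052440.1 became −0.024 with S001C alone and −0.022 without the 2 accessions farthest in FT, and r became −0.055 (S001C), −0.12 (S0013) and −0.057 (without those 2) for Csa05g052440.1 and −0.016 (S0013) for Csa07g017920.1, the S0013 values being added after seeing the data. Numbers of gene models called moved more than the pair did. Late against early called 7469, or 3357 with Cs alone and 3878 to 6462 without 1 late accession. CAM against CN called 22 with edgeR (20 higher, 2 lower), 211 with DESeq2 (52 higher, 159 lower), 231 without a filter, 12 with Cs alone and 0 with S001C alone (6723 at an unadjusted p under 0.05). FT called 11, or 687 without a filter, 104 with DESeq2, 27 with Cs alone, 57 without the 2 farthest accessions and 0 with S001C alone (1212 at an unadjusted p under 0.05). Series called 8332 (4364 higher, 3968 lower), and 17870 with RLE (1319 higher, 16551 lower). CN 113672 called 71 (59 higher, 12 lower), 62 with DESeq2 (17 higher, 45 lower) and 95 to 347 without 1 library. Its Csa05g052440.1 change ran from −1.40 to −0.49. Leaving out 1 late accession gave −7.20 to −2.998 for Csa05g052440.1 and −10.001 to −2.73 for Csa07g017920.1. Leaving out 1 library gave 0 to 0.463 CPM for Csa05g052440.1 in CN 113692 and, in CN 113662, 10.7 to 23.04 CPM for Csa05g052440.1 and 13.2 to 19.0 CPM for Csa07g017920.1. When off meant under 1 CPM, 1 library of CN 113662 (Cs035) and 1 of the silent accession CN 113691 (Cs019, 1.11 CPM) became intermediate for Csa05g052440.1. So did 1 each of CN 113662 and CN 113672 when the bound of on left out CN 113672, an alternative added after seeing the data. The highest likeness fell to 0.80 and 0.76 by rho and to 0.76 and 0.68 in early libraries. Why the counts of calls moved was not tested. Apart from the series contrast, with the accession as a block, no paired analysis was possible. The labels give library codes and no replicate numbers. A count of 0 allows up to 3 counts, which is 4.64 CPM in Cs008, and folds from 1 or 2 counts are known only within their wide intervals.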
